A study of Mus musculus with 2 samples.

Results

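The interleukin-6 (IL-6) family was examined here through 9 genes in cells of the pressure-overloaded mouse heart. They are the ligand genes Il6, Il11, Lif, Clcf1 and Osm and the receptor genes Il6ra, Il6st, Lifr and Osmr, listed by name and taken from the 56954 features of the deposited matrix. All 9 were present. Cells were sorted into lineages by gates on raw counts of marker transcripts, and the levels of the 9 genes were then read in each lineage and in subsets of fibroblasts and macrophages.

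The material was 1 pool of heart cells other than cardiomyocytes from 4 Nts KO and 3 control mice, collected 7 days after TAC (transverse aortic constriction, which narrows the aorta and overloads the left ventricle). The study asks what neurotensin, the peptide encoded by Nts, does in this setting when it comes from lymphatic vessels. The labels give the genotype of the pooled library as wild type and the age as 6-8 weeks, whereas its title and the study design name both genotypes. Every mouse had TAC, and no heart without the operation is among the samples. A CreERT2 transgene is among the features, and the promoter that drives it is not given in the sources used here. The hashtag library that would tie cells to mice was not analysed here, so mice and genotypes could not be separated, and no comparison of Nts KO with control was made. All values describe this 1 pool, with no replicates. Intervals are 95% intervals that cover counting error only.

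The library held 9369 barcodes, none repeated, with 2567 to 42567 UMIs each (unique molecular identifiers, which tag single captured transcripts) and a median of 6663. Scrublet called 357 doublets (3.81%), which were left out, and 9012 cells were analysed. Of these, 7748 passed the gate of 1 compartment, 1104 passed several and were set aside, and 160 passed none. The gated cells comprised 4408 fibroblasts, 2312 myeloid cells, 514 lymphoid cells, 460 endothelial cells and 34 mural cells, with smaller numbers of mesothelial, Schwann and mast cells. The fibroblast marker list summed to 6459 CPM (UMIs per 1000000 UMIs, summed over the cells of a group) in the fibroblast gate and to 137, 165 and 115 CPM in the myeloid, endothelial and lymphoid gates. Cardiomyocyte genes summed to 22.0 to 26.9 CPM in these 4 gates, which fits the labelled tissue fraction.

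Cytokines of the family share a signal-transducing receptor chain, gp130, encoded by Il6st. IL-6 and IL-11 first bind their own alpha receptors, encoded by Il6ra and Il11ra1, while leukaemia inhibitory factor (Lif) pairs gp130 with the chain encoded by Lifr, and oncostatin M (Osm) pairs it with the chain encoded by Osmr. The assembled receptors activate JAK kinases and STAT3, whose target Socs3 encodes a feedback inhibitor of gp130. In the heart the family is known for acute-phase signalling, cardiomyocyte survival and growth, and fibroblast activation.

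In the GRCm38 assembly (mm10) with GENCODE M21 genes, Il6 lies on the plus strand at chr5:30013114-30019981, Il6ra on the minus strand at chr3:89864059-89913196 and Il6st on the plus strand at chr13:112464070-112510086. Osm and Lif are neighbours on the plus strand of chromosome 11, at chr11:4236420-4241026 and chr11:4257557-4272514, with 16530 bases and no annotated gene between them. Osmr and Lifr lie 215644 bases apart on chromosome 15, at chr15:6813577-6874969 on the minus strand and chr15:7090614-7197489 on the plus strand. Il11 is at chr7:4772373-4782859 on the minus strand, and Clcf1 is at chr19:4214238-4223490 on the plus strand. Clcf1 overlaps AC109138.7 on the same strand, so its counts may include or lose reads of that gene. Il6ra overlaps the antisense gene Gm42809 on the opposite strand, which matters for its counts only if the counting did not separate strands. That was not checked.

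The promoters of 3 members are printed because Il6 and Osmr were found together at higher levels in fibroblasts, whereas Il6ra was highest in myeloid cells. Each is the RefSeq window (GRCm38.p6) of 250 bases before and 50 bases after the annotated start, read 5′ to 3′ on the gene's strand: chr5:30012864-30013163 for Il6, chr15:6874264-6874563 on the minus strand for Osmr and chr3:89913147-89913446 on the minus strand for Il6ra. Capitals mark the matches to any of the 4 motifs searched.
Il6: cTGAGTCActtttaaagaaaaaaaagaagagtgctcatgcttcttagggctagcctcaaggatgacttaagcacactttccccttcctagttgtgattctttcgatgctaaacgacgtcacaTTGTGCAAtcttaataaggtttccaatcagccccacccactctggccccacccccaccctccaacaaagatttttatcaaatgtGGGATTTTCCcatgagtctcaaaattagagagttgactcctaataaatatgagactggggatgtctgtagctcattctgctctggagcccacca
Osmr: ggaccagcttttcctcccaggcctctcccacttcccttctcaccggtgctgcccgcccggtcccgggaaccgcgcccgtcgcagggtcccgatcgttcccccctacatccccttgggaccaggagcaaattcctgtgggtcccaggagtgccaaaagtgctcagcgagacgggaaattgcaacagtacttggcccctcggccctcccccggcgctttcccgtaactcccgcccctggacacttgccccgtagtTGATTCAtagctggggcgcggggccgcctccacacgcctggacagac
Il6ra: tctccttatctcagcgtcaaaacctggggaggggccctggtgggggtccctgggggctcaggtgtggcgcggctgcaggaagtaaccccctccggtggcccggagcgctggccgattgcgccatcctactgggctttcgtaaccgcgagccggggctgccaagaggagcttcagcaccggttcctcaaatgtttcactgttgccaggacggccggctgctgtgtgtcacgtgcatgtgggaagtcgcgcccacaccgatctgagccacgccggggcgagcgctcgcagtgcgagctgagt

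The motifs were searched on both strands as TGANTCA for AP-1, TTGNGCAA for C/EBP and TTCNNNGAA for STAT factors and as the NF-kB motif, and no matches overlapped. Of 32851 promoter windows of the same length, 7.81% held the AP-1 letters, 0.411% the NF-kB letters, 2.94% the C/EBP letters and 8.30% the STAT letters. Counting from the start, with the last base before it at position -1, the Il6 window held TGAGTCA from -249, TTGTGCAA from -128 and GGGATTTTCC from -44. The Osmr window held TGATTCA from position 4. The second of the Il11 windows and the Lif window also held an AP-1 match, at -98 and -228. The windows of Il6ra, Il6st and Lifr held none of the 4 motifs. In all, 7 of the 9 members had a window, and the STAT letters were in none of their windows. Osm and Clcf1 are named only.

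Ligands and receptors were divided between the lineages. Fibroblasts carried most of the Il6, Il11, Il6st and Osmr transcripts, myeloid cells most of Osm and Il6ra, and lymphoid cells had the highest Clcf1 levels. A member was called higher or lower in a compartment when its CPM was at least 2-fold above or below that of all other gated cells, with at least 20 UMIs over both sides. Levels were compared between groups of cells and not between genes, since 3′ UMI counts of different genes are not on a common scale.

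In fibroblasts, 4 of 9 members were called higher and 4 lower, where 23.7% of all 17890 genes counted in the same way were higher and 20.5% lower. In myeloid cells 3 members were higher and 4 lower, against 14.7% and 33.5% of all genes. In endothelium 2 were higher and 5 lower, against 13.6% and 22.9%. Of these 5, Il11 and Lif rested on 3 UMIs each. The endothelial Il11 interval, 0.252-3.58 CPM, included the fibroblast level of 3.55 CPM, so depth cannot show that Il11 was lower. In lymphoid cells 1 was higher and 6 lower, against 17.5% and 36.6%. In the 34 mural cells 0 were higher and 6 lower, against 16.5% and 47.5%. Of the 6, 4 had no UMI in mural cells, and for Il11, with a ratio of 0 (0-10.6), and Lif, with a ratio of 0 (0-5.80), depth cannot show that they were lower. The median log2 ratio of the members was 0.33 in fibroblasts and -0.15 in myeloid cells, against 0.08 and -0.31 over all genes.

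**Figure D1:**
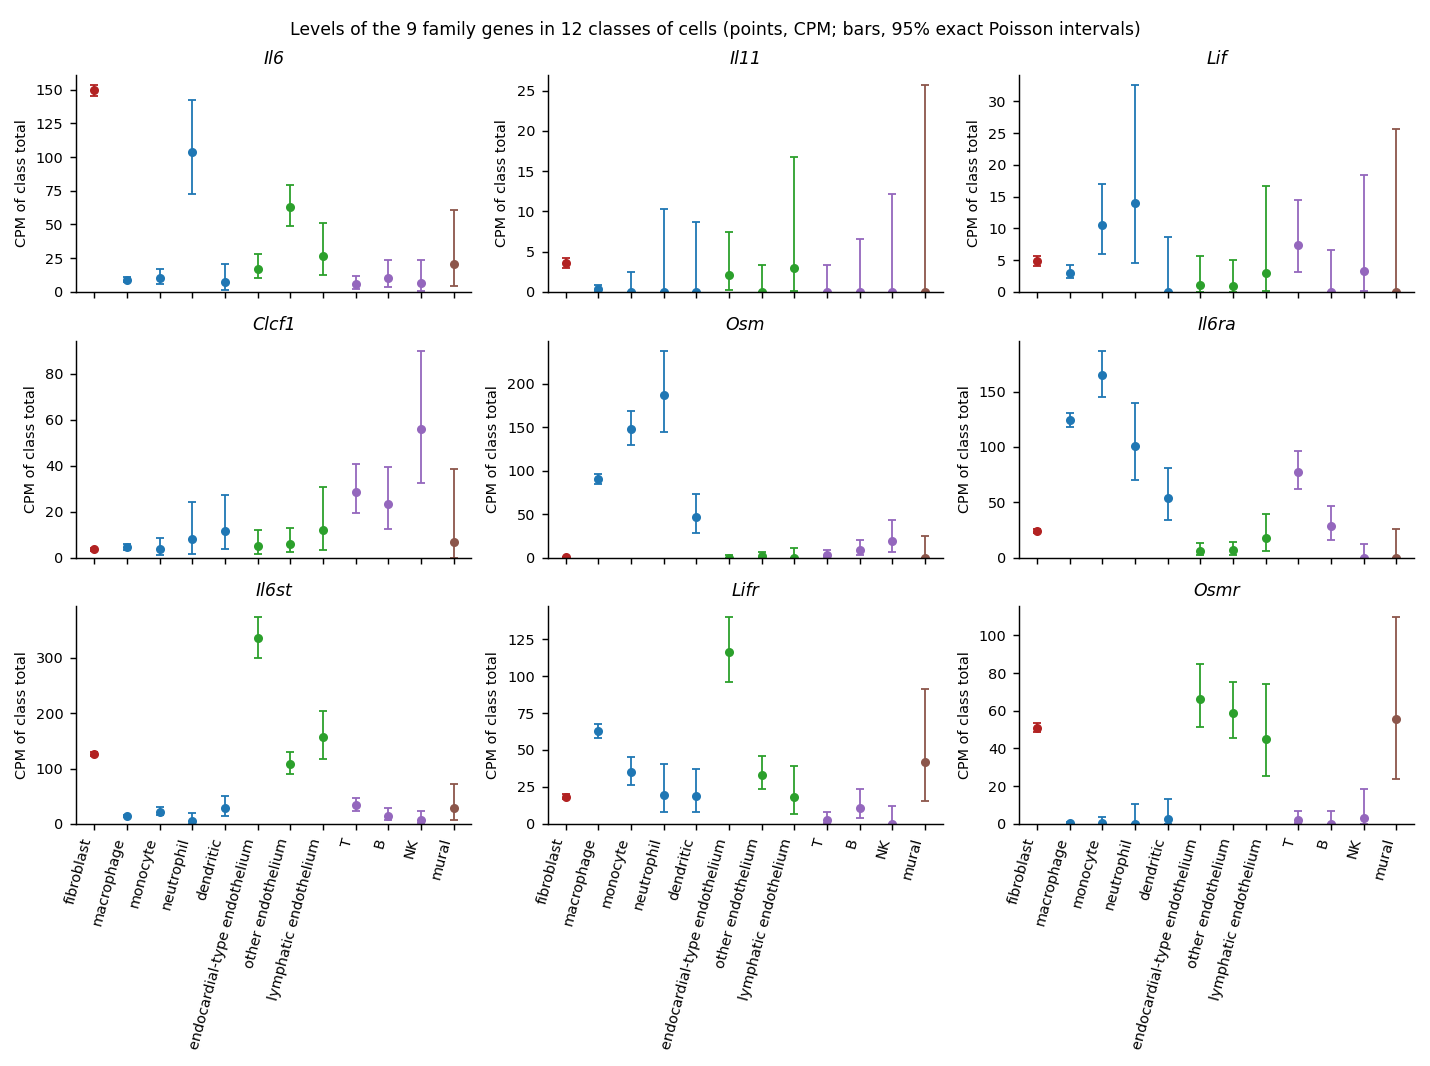
Levels of the 9 family genes (vertical axes, CPM of the summed UMIs of each class, linear) in 12 classes of cells (horizontal axes), with points for the level and bars for the 95% exact Poisson interval; colours mark fibroblast (red), myeloid (blue), endothelial (green), lymphoid (purple) and mural (brown) classes. Il6 was highest in fibroblasts at 149 CPM, Osm in neutrophils at 187 CPM and Il6st in endocardial-type endothelium at 336 CPM. The Osm intervals of neutrophils and monocytes overlap.

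Il6, the founding cytokine of the family, was carried mainly by fibroblasts. It reached 149 CPM (145-153) in fibroblasts and 15.2 CPM in the other gated cells, a ratio of 9.83 (8.72-11.1). Fibroblasts held 5213 of the 5498 Il6 UMIs in gated cells (94.8%), while they held 65.1% of all transcripts. Between classes, the next levels were 103 CPM (72.8-143) in neutrophils and 62.6 CPM (48.8-79.1) in endothelium other than lymphatic and endocardial-type. Of the 37 Il6 UMIs of neutrophils, 35 were in 1 cell, and without it the neutrophil level was 5.75 CPM. That cell had 10149 UMIs in all, with 59 from the neutrophil list, 16 from the macrophage list, 7 from the monocyte list and 1 from the fibroblast list. Lymphatic endothelium had 27.0 CPM on 9 UMIs, of which 6 were in 1 cell without which the level was 9.17 CPM, and endocardial-type endothelium had 17.4 CPM.

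Macrophages had 9.02 CPM of Il6 (7.36-10.9) and monocytes 10.5 CPM (6.01-17.1). T cells had 5.54 CPM (2.03-12.1), B cells 10.7 CPM (3.93-23.3) and NK cells 6.61 CPM (0.801-23.9), at median depths of 3222, 3383 and 3415 UMIs. The intervals of macrophages and monocytes overlapped those of the lymphoid classes, which serve as the level that free RNA could give, so no Il6 above that level was detectable in either class as a whole. With every cell thinned to 2500 UMIs, 19.6% of fibroblasts (18.5-20.9) had an Il6 UMI, against 5.65% of endothelial cells (3.73-8.17), 1.77% of myeloid cells (1.28-2.40) and 2.14% of lymphoid cells (1.07-3.80). Before thinning the share in fibroblasts was 33.7%, or 1487 of 4408 cells at a median depth of 7430 UMIs. The most in 1 cell was 36 UMIs, and the 95 fibroblasts with 10 or more held 25.8% of the fibroblast Il6 UMIs.

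Il11, a cytokine that acts on stromal cells through Il11ra1, was scarce and found mostly in fibroblasts. Fibroblasts held 124 of the 131 UMIs in gated cells (94.7%), spread over 110 cells with at most 4 in a cell. The level was 3.55 CPM in fibroblasts and 0.373 CPM in the other gated cells, a ratio of 9.52 (4.48-24.2). Of the other 11 classes in the plot of levels by class, 8 had no Il11 UMI, and their upper interval bounds ran from 2.42 to 25.7 CPM. Lymphatic endothelium had 3.00 CPM (0.0760-16.7) on 1 UMI and endocardial-type endothelium 2.05 CPM (0.248-7.39) on 2 UMIs. Both intervals include the fibroblast level. Depth therefore limits what can be said of the smaller classes.

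Lif, which signals through Lifr and gp130, was low in every lineage and did not pass the 2-fold limit in fibroblasts. It had 4.87 CPM in fibroblasts and 3.68 CPM in the other gated cells. Among the classes with UMIs in more than 1 cell it was highest in monocytes, at 10.5 CPM (6.01-17.1) on 16 UMIs in 11 cells. T cells, at 7.38 CPM (3.19-14.5) on 8 UMIs in 5 cells, had an overlapping interval. Monocytes stood above macrophages, which had 3.06 CPM (2.13-4.26), with a ratio of 3.43 (1.77-6.36). It was 1 of 7 members with enough UMIs called higher in monocytes than in macrophages, with 0 lower, against 7.73% and 21.4% of all genes. The 14.0 CPM of neutrophils came from 5 UMIs in 1 cell.

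Clcf1, a cytokine known to stimulate B cells, was highest in lymphocytes. Lymphoid cells had 30.9 CPM (23.6-39.7) and the other gated cells 4.20 CPM, a ratio of 7.36 (5.44-9.81). They held 61 of 278 UMIs (21.9%), while they held 3.68% of all transcripts. NK cells had 56.2 CPM (32.7-90.0), T cells 28.6 CPM (19.4-40.6) and B cells 23.2 CPM (12.4-39.7), with overlapping intervals. Fibroblasts had 3.70 CPM (3.09-4.39), the lowest of the 12 classes, and yet 46.4% of the UMIs, owing to their number. After thinning, 7.39% of lymphoid cells (5.28-10.0) had a Clcf1 UMI, against 0.771% of fibroblasts and 1.21% of myeloid cells.

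Osm, a cytokine of myeloid and lymphoid leukocytes, was almost confined to the myeloid gate among gated cells. Myeloid cells had 98.4 CPM (93.2-104) and the other gated cells 1.29 CPM, a ratio of 76.3 (57.7-103). They held 1383 of 1434 Osm UMIs (96.4%). Neutrophils had 187 CPM (145-238) and monocytes 148 CPM (130-169), whose intervals overlap, and macrophages followed with 90.7 CPM (85.2-96.4). The macrophage and monocyte lists summed to 5145 and 1509 CPM in the neutrophil class, and their part in its Osm level was not tested. Monocytes exceeded macrophages 1.64-fold (1.41-1.89). The 47.2 CPM of dendritic cells rested on 1 cell with 17 of the 20 UMIs, and without it the level was 7.20 CPM. Fibroblasts had 0.946 CPM on 33 UMIs. After thinning, 17.1% of myeloid cells (15.6-18.7) had an Osm UMI, against 0.250% of fibroblasts (0.125-0.446).

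Il6ra, the alpha receptor that makes a cell responsive to IL-6 itself, was highest in myeloid cells. Their level was 125 CPM (120-131), against 24.5 CPM in the other gated cells, a ratio of 5.12 (4.73-5.54). Myeloid cells held 1762 of 2731 UMIs (64.5%) and fibroblasts 845 (30.9%). By class, monocytes had 165 CPM (145-187), macrophages 124 CPM (118-131), neutrophils 101 CPM (70.5-139), T cells 77.5 CPM (61.8-96.0) and dendritic cells 54.3 CPM (34.4-81.5). The intervals of neutrophils overlapped those of macrophages and of T cells. The macrophage list summed to 5145 CPM in the neutrophil class and 10429 CPM in the macrophage class, and its part in the neutrophil level was not tested. B cells had 28.6 CPM and fibroblasts 24.2 CPM (22.6-25.9). NK cells and mural cells had no Il6ra UMI, with upper bounds of 12.2 and 25.7 CPM.

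Il6st, which encodes the shared chain gp130, had nearly the reverse distribution. Its levels were 336 CPM (300-374) in endocardial-type endothelium, 156 CPM (117-205) in lymphatic endothelium, 127 CPM (123-130) in fibroblasts and 108 CPM (89.8-129) in other endothelium. The last 3 had overlapping intervals between neighbours. T cells had 34.1 CPM (24.0-47.1), monocytes 22.3 CPM, macrophages 13.8 CPM (11.8-16.2), NK cells 6.61 CPM and neutrophils 5.59 CPM. Myeloid cells were therefore low, at 15.1 CPM against 126 CPM in the other gated cells. Fibroblasts exceeded the other gated cells 2.99-fold (2.77-3.23), with 127 and 42.4 CPM, and endothelium did so 2.26-fold, with 207 and 91.9 CPM.

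Il6ra and Il6st were thus high in different classes. With cells thinned to 2500 UMIs, 27.2% of macrophages had an Il6ra UMI and 3.80% an Il6st UMI, and 17 of 1866 had both (0.911%, 0.532-1.45), where the product of the shares is 1.04%. In fibroblasts 5.72% had Il6ra and 27.5% Il6st, and 77 of 4408 had both (1.75%, 1.38-2.18), where the product is 1.57%. The shares with both were thus close to those of independent detection, at a depth that misses most transcripts of either gene.

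Lifr, the receptor chain for Lif, was highest in endocardial-type endothelium, with 117 CPM (96.2-140), and next in macrophages, with 62.8 CPM (58.3-67.6). Mural cells had 41.8 CPM on 6 UMIs, monocytes 34.8 CPM (26.1-45.5), other endothelium 33.1 CPM (23.3-45.6) and fibroblasts 18.4 CPM (17.0-19.9). T cells had 2.77 CPM and NK cells no UMI. The myeloid level was 56.4 CPM against 20.7 CPM in the other gated cells, a ratio of 2.72 (2.47-3.01). The endothelial level was 66.1 CPM against 28.3 CPM, a ratio of 2.33, which was 1.81 and inside the 2-fold limit under a looser gate of 3 marker UMIs from 2 genes. Monocytes had less Lifr than macrophages, with a ratio of 0.554 (0.411-0.733), within the 2-fold limit.

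Osmr, the receptor chain for Osm, was found in stromal and vascular cells and was nearly absent from leukocytes. Endocardial-type endothelium had 66.5 CPM (51.3-84.7), other endothelium 59.1 CPM (45.7-75.1), mural cells 55.7 CPM (24.1-110), fibroblasts 50.8 CPM (48.5-53.3) and lymphatic endothelium 45.0 CPM (25.2-74.3), with overlapping intervals between neighbours. The other 7 classes had at most 3.31 CPM. Macrophages, which carried Osm, had 0.613 CPM of Osmr (0.246-1.26) on 7 UMIs. Fibroblasts exceeded the other gated cells 5.54-fold (4.74-6.52), with 50.8 and 9.18 CPM, and held 1774 of 1946 UMIs (91.2%). After thinning, 11.8% of fibroblasts (10.8-12.8) and 13.3% of endothelial cells (10.3-16.7) had an Osmr UMI, against 0.0865% of myeloid cells.

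Within endothelium, the endocardial-type cells differed from the rest. They were chosen by Npr3, Cytl1, Tmem108, Cgnl1 and Nrg1, and 166 cells passed, against 223 cells of other endothelium. Of the 4 members with enough UMIs, 2 were higher and 1 lower in the endocardial-type cells, against 10.1% and 8.41% of all genes. Il6st was 3.10-fold higher (2.51-3.85), at 336 and 108 CPM, and Lifr was 3.52-fold higher (2.41-5.25), at 117 and 33.1 CPM. Osmr had 66.5 and 59.1 CPM. Il6 was lower, at 17.4 CPM in endocardial-type cells and 62.6 CPM in other endothelium, a ratio of 0.278 (0.153-0.477). The fibroblast list summed to 193 CPM in endocardial-type cells and 157 CPM in other endothelium. The mural list summed to 20.5 and 62.6 CPM and the mesothelial list to 15.3 and 89.5 CPM. The dendritic list summed to 8.18 and 43.8 CPM, all from Zbtb46, the only 1 of its 7 genes with a UMI in either group. The part of these transcripts in the Il6 level was not tested. Il11ra1, encoding the alpha receptor of IL-11, was 6.27-fold higher (4.14-9.83) in endocardial-type cells, at 151 and 24.2 CPM, though reads of its near-identical copies may be assigned to it. After thinning, 32 of 166 endocardial-type cells had both Lifr and Il6st (19.3%, 13.6-26.1), where the product of the shares is 15.7%. In lymphatic against other endothelium, 0 of 4 members were higher and 1 lower, against 9.68% and 13.8% of all genes, and the 1 was Il6, at 27.0 and 62.6 CPM.

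Fibroblasts were divided by 8 overlapping subset gates, each requiring at least 4 UMIs from at least 2 genes of its list. Of the 4408 fibroblasts, 2680 passed at least 1 gate, 707 passed several and 1728 passed none. The gates held 278 cells for Cthrc1 and Postn (genes of matrix-producing, injury-activated fibroblasts), 1702 for Pi16, Cd248 and Dpp4 (adventitial-type fibroblasts), 649 for Cxcl14 and C3, 500 for Hsd11b1 and Penk, 185 for Igfbp3, Mmp3 and Osr1, 93 for Wif1, Comp and Fmod, 65 for cycling genes and 27 for Tnc and Col26a1. Il6 was found in all 8 subsets.

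The Il6 level was 124 CPM (112-138) in Cthrc1 and Postn fibroblasts, 147 CPM in Pi16, Cd248 and Dpp4 fibroblasts, 152 CPM in Cxcl14 and C3 fibroblasts, 121 CPM in Hsd11b1 and Penk fibroblasts and 140 CPM in Igfbp3, Mmp3 and Osr1 fibroblasts. Fibroblasts in no subset had 159 CPM. These 6 levels lie within a narrow band, and none of the 5 subsets passed the 2-fold limit for Il6. The 27 Tnc and Col26a1 fibroblasts had 244 CPM (195-302) on 85 UMIs in 16 cells, against 148 CPM in the other fibroblasts, a ratio of 1.64 (1.31-2.04). In earlier results of these same data this subset was named for Il6 together with Tnc and Col26a1. Il6 was left out of the gate here, but its higher level in this subset is not an independent result. Cycling fibroblasts were the low end, with 44.5 CPM (31.0-61.9) against 152 CPM in the others, a ratio of 0.293 (0.204-0.408). Wif1, Comp and Fmod fibroblasts had 80.7 CPM (62.9-102).

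Calls of the other members in these subsets were few. In Cthrc1 and Postn fibroblasts 1 of 9 members was higher and 0 lower, against 4.52% and 8.11% of all genes. The 1 was Lif, at 11.4 CPM on 34 UMIs in 24 cells, against 4.26 CPM in the other fibroblasts, a ratio of 2.69 (1.79-3.94). In Pi16, Cd248 and Dpp4 fibroblasts 0 members were higher and 0 lower, against 1.89% and 3.8%. In Cxcl14 and C3 fibroblasts 0 were higher and 2 lower, against 1.8% and 6.18%. The 2 were Clcf1, at 1.79 CPM on 9 UMIs, and Osm, at 0.398 CPM (0.0482-1.44) on 2 UMIs. In Hsd11b1 and Penk fibroblasts 0 were higher and 3 lower, against 2.93% and 7.97%, and Lif and Il11 were among the lower, with 1.95 and 1.40 CPM. The remaining one was Osm, at 0.279 CPM (0.00706-1.55) on 1 UMI. In Igfbp3, Mmp3 and Osr1 fibroblasts 0 were higher and 1 lower, against 6.07% and 10.2%. The 1 was Clcf1, at 1.46 CPM (0.177-5.28) on 2 UMIs. This interval and those of Osm included the levels of all fibroblasts, 3.70 CPM for Clcf1 and 0.946 CPM for Osm. Those calls therefore rest on too few UMIs to show a lower level.

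Among the receptors, Il6ra and Lifr varied more across the subsets than Il6st and Osmr. Il6ra was 35.7 CPM in Hsd11b1 and Penk fibroblasts and 29.8 CPM in Pi16, Cd248 and Dpp4 fibroblasts, and it was 13.8 CPM (9.90-18.7) in Cthrc1 and Postn fibroblasts. Lifr was 33.2 CPM in Hsd11b1 and Penk fibroblasts against 16.7 CPM in the other fibroblasts, a ratio of 1.98 (1.61-2.43) just inside the 2-fold limit. Il6st ranged from 86.5 to 146 CPM over the 8 subsets and Osmr from 28.0 to 60.8 CPM. In Wif1, Comp and Fmod fibroblasts 3 members were higher and 2 lower, against 7.72% and 17.2% of all genes. The lower members were Il6ra, at 4.61 CPM against 24.7 CPM, a ratio of 0.187 (0.0507-0.479), and Lifr, at 3.46 CPM against 18.8 CPM, a ratio of 0.184 (0.0378-0.540). The higher ones, Il11, Clcf1 and Osm, had 7, 8 and 2 UMIs, and the intervals of the Il11 and Osm ratios included 1.

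Tnc and Col26a1 fibroblasts had 2 members higher and 3 lower, against 10.3% and 26% of all genes. The higher ones were Clcf1 on 3 UMIs and Osm on 2 UMIs, and the intervals of all 5 ratios included 1. Cycling fibroblasts had 0 higher and 4 lower, against 10.3% and 21.5%, among them Il6 and, at 7.63 CPM against 24.6 CPM in the others, Il6ra. The remaining ones, Lif and Osm, had no UMI there, each with an upper bound of 4.69 CPM. All fibroblasts had 4.87 CPM of Lif and 0.946 CPM of Osm, so a lower Osm level was not detectable at this depth. Genes of the dissociation response (12 immediate-early and heat shock genes that enzymatic digestion is known to induce) summed to 13858 CPM in cycling fibroblasts, 16385 CPM in Tnc and Col26a1 fibroblasts and 17960 CPM in Cthrc1 and Postn fibroblasts, and to 20221 to 25941 CPM in the other 5 subsets. The part of this response in the Il6 levels of the subsets was not tested.

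**Figure D2:**
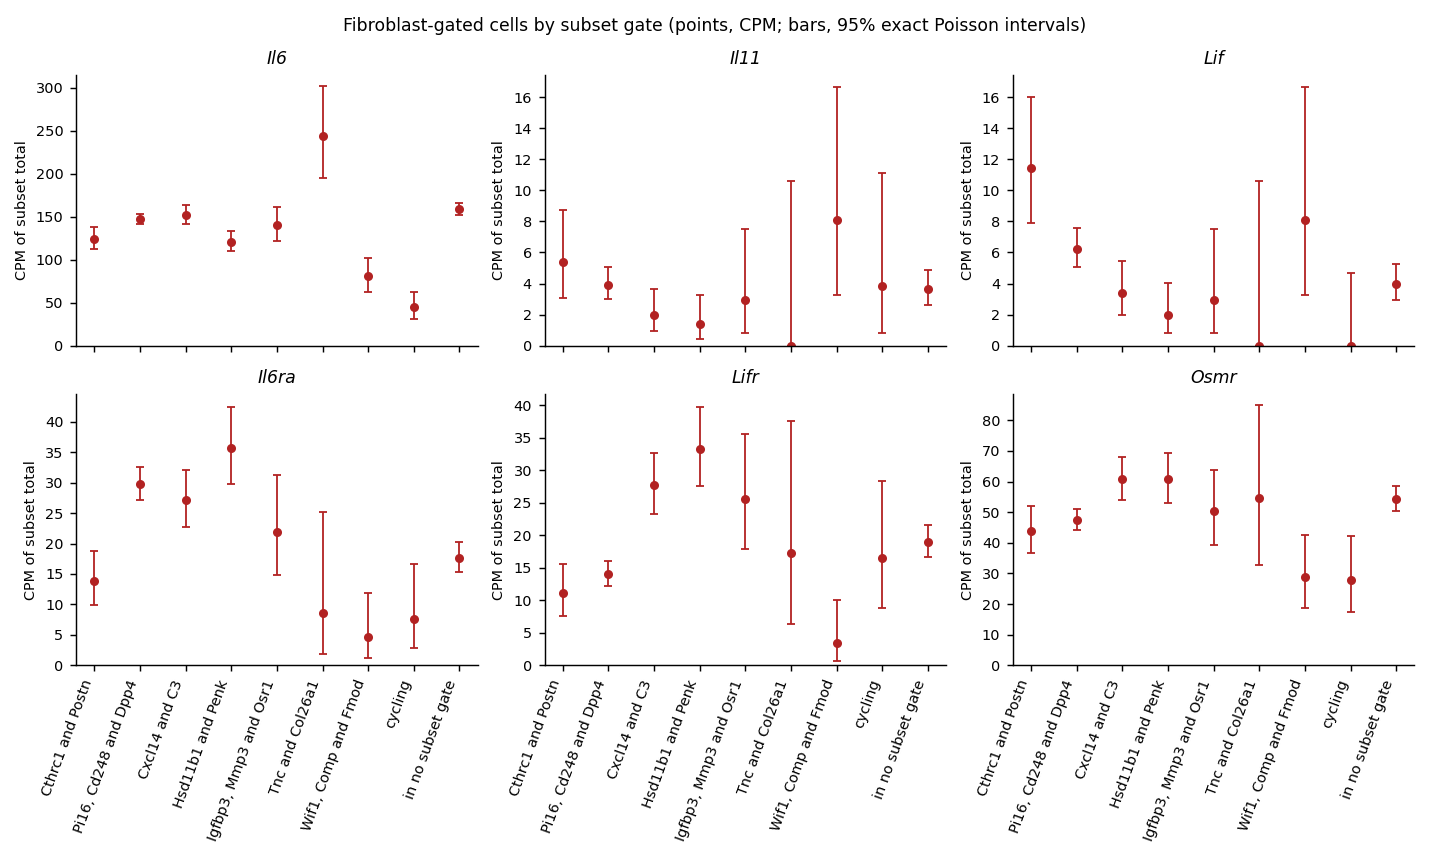
Levels of 6 family genes (vertical axes, CPM of the summed UMIs of each subset, linear) in 8 fibroblast subsets and in fibroblasts of no subset (horizontal axes), with points for the level and bars for the 95% exact Poisson interval. Il6 was 44.5 CPM in cycling fibroblasts and 244 CPM in Tnc and Col26a1 fibroblasts, a subset earlier named for Il6 as well. Lif was 11.4 CPM in Cthrc1 and Postn fibroblasts, and Il6ra and Lifr were 4.61 and 3.46 CPM in Wif1, Comp and Fmod fibroblasts.

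Fibroblasts with many Il6 transcripts had more Osmr. Over the 2921 cells with 0 Il6 UMIs, the 835 with 1 to 2, the 557 with 3 to 9 and the 95 with 10 or more, the Osmr level was 42.7 CPM (40.0-45.6), 50.5 CPM (45.4-56.0), 74.4 CPM and 108 CPM. Il6st stayed at 125, 131, 126 and 127 CPM over the same steps, and Lifr had 17.8, 18.2, 22.1 and 14.6 CPM. The ratio of Osmr between cells with 3 or more Il6 UMIs and those with 0 was 1.87 (1.68-2.09). Cells with more Il6 UMIs were also deeper, with median depths of 6989, 7950, 8664 and 9987 UMIs over the 4 steps. With all cells thinned to 2500 UMIs before the split, Osmr was 75.3 CPM in the 866 cells with an Il6 UMI and 47.9 CPM in the 3542 with none. In the 174 cells with 3 or more Il6 UMIs after thinning, Osmr was 106 CPM (77.4-141) on 46 UMIs.

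Several genes of the signalling pathway moved along the same steps. Socs3, the feedback inhibitor induced by STAT3, had 487, 780, 1048 and 1046 CPM, and Bcl3, a regulator of NF-kB target genes, had 14.4, 24.2, 35.0 and 56.4 CPM. Stat3 had 90.2, 109, 132 and 168 CPM and Jak1 208, 225, 262 and 330 CPM. Cebpd, a transcription factor gene of the acute-phase response, had 1909, 2738, 3374 and 4161 CPM and Cebpb 868, 1182, 1519 and 1857 CPM. Timp1, an inhibitor of matrix proteases that oncostatin M is known to induce, did not follow, with 297, 299, 248 and 331 CPM.

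The dissociation response also varied along these steps, with 21305, 26211, 28241 and 25425 CPM. When fibroblasts were divided into 3 equal-sized groups by their share of these transcripts, Il6 had 72.4, 164 and 212 CPM in the low, middle and high group. Within the low, middle and high group, Osmr was 78.4, 70.1 and 90.7 CPM in cells with 3 or more Il6 UMIs and 39.5, 39.7 and 51.6 CPM in those with 0, and the ratio was 1.98, 1.76 and 1.76. Osmr was thus higher in cells with 3 or more Il6 UMIs in each group, but the cells compared were not matched. The dissociation list summed to 12748, 22674 and 38259 CPM in cells with 3 or more Il6 UMIs. It summed to 9642, 22225 and 38422 CPM in those with 0. Median depths were 9772, 9573 and 8170.5 UMIs in the former and 6825, 7577.5 and 6678 UMIs in the latter. The part of depth and of this response in the Osmr difference was not tested. Over the low, middle and high group, Socs3 was 542, 945 and 1331 CPM in cells with 3 or more Il6 UMIs and 188, 490 and 950 CPM in those with 0. Socs3 thus differed between the groups of dissociation response as well as between cells with and without Il6. The macrophage list summed to 52.6 CPM in fibroblasts with 3 or more Il6 UMIs and to 63.2 CPM in those with 0.

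**Figure D3:**
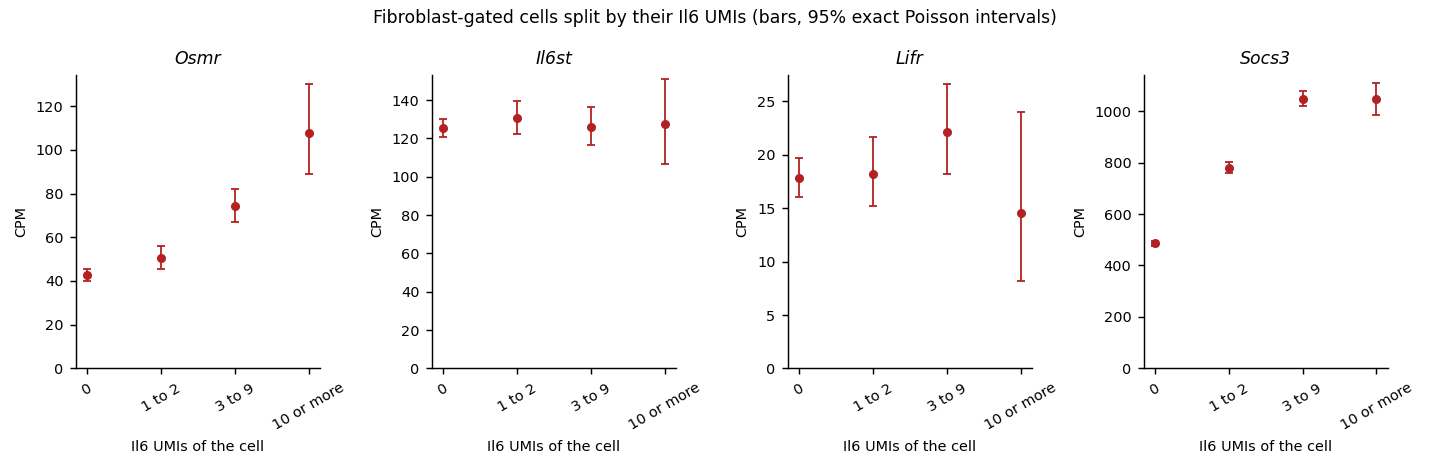
Levels of Osmr, Il6st, Lifr and Socs3 (vertical axes, CPM, linear) in fibroblasts grouped by the number of Il6 UMIs in the cell (horizontal axes), with points for the level and bars for the 95% exact Poisson interval. Osmr was 42.7 CPM in cells without Il6 and 108 CPM in cells with 10 or more Il6 UMIs, while Il6st lay between 125 and 131 CPM.

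Among the 1866 macrophages, 37 passed the gate for Arg1 and Spp1, genes of wound-type macrophages, and these had high levels of 3 ligand genes. Of 7 members with enough UMIs, 3 were higher and 1 lower than in the other macrophages, against 6.93% and 26.1% of all genes. Osm was 231 CPM in wound-type and 86.5 CPM in the other macrophages, a ratio of 2.68 (2.09-3.38). Il6 was 75.1 CPM in wound-type and 7.03 CPM in the other macrophages, a ratio of 10.7 (6.52-17.0), on 25 UMIs in 8 cells. Lif was 48.1 CPM in wound-type and 1.71 CPM in the other macrophages, a ratio of 28.1 (13.5-57.6), on 16 UMIs in 6 cells. Without the cell with most UMIs of each gene the ratios were 2.44 for Osm, 7.35 for Il6 and 17.8 for Lif.

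The receptor gene Lifr ran the other way in wound-type macrophages, at 9.02 CPM against 64.5 CPM in the other macrophages, a ratio of 0.140 (0.0288-0.410) on 3 UMIs. Il6ra had 96.2 and 125 CPM and stayed inside the 2-fold limit. High ligand and low Lifr levels were not particular to the gated cells. A mainly myeloid Leiden cluster of 412 cells held 490 Osm, 133 Il6, 46 Lif and 69 Lifr UMIs. Another mainly myeloid cluster, of 1018 cells, held 537, 25, 9 and 347. The acute-phase gene Saa3 was 41.8-fold higher in wound-type macrophages, with 818 and 19.6 CPM. The neutrophil list summed to 643 CPM in wound-type and 297 CPM in the other macrophages, the monocyte list to 595 and 504 CPM and the fibroblast list to 180 and 146 CPM. All 7 genes of the neutrophil list and 8 of the 9 of the fibroblast list had a UMI in wound-type macrophages. The part of these transcripts in the ligand levels was not tested. The dissociation response was lower in wound-type macrophages, at 13437 CPM against 24587 CPM in the others.

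The 430 resident macrophages, gated by Folr2, Lyve1 and Timd4, had 0 of 7 members higher and 1 lower, against 4.52% and 5.18% of all genes. That 1 was Clcf1, with no UMI in resident macrophages, an upper bound of 1.29 CPM, and 6.08 CPM on 52 UMIs in the other macrophages. Osm was 59.6 CPM in resident and 101 CPM in the other macrophages, a ratio of 0.590 (0.498-0.696). The monocyte list summed to 154 CPM in resident and 625 CPM in the other macrophages and the dendritic list to 12.9 and 94.1 CPM, and their part in the Osm level was not tested. Lifr was 84.1 CPM in resident and 55.7 CPM in the other macrophages, a ratio of 1.51 (1.29-1.76). In the 60 cycling macrophages 0 members were higher and 1 lower, against 10.6% and 10.8%, the 1 being Lif with no UMI. Its upper bound of 6.40 CPM lies above the 3.23 CPM of the other macrophages, so a lower level was not detectable at this depth.

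**Figure D4:**
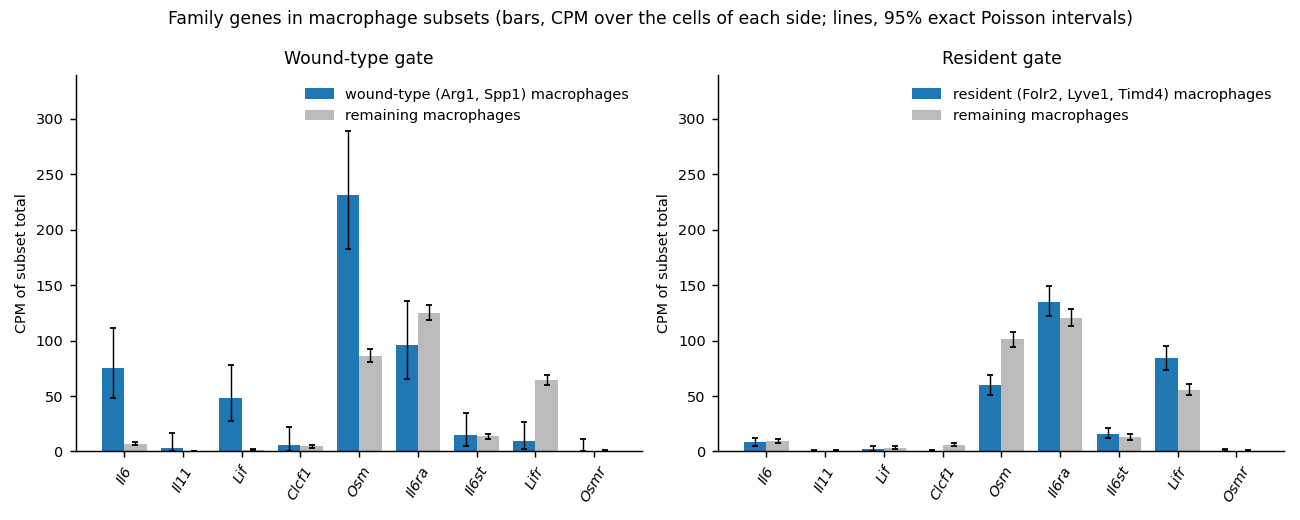
Levels of the 9 family genes (vertical axes, CPM of the summed UMIs, linear from 0) in macrophages of the wound-type gate (left panel, blue) and the resident gate (right panel, blue), each beside all other macrophages (grey), with lines for the 95% exact Poisson interval. Osm, Il6 and Lif were 231, 75.1 and 48.1 CPM in wound-type macrophages, and Lifr was 9.02 CPM there and 84.1 CPM in resident macrophages.

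The other genes of the pathway were counted in 5 lists with 35 genes. Among 9 other ligands and receptors, 7 had enough UMIs. In fibroblasts 4 were higher and 2 lower, against 23.7% and 20.5% of all genes. Cntfr, an alpha receptor through which Clcf1 acts, had 23.2 CPM in fibroblasts and 0.267 CPM in the other gated cells, a ratio of 87.0. Il11ra1 had 208 and 33.8 CPM, a ratio of 6.16, with its near-identical copies as a source of uncertainty. The median log2 ratio of this list was 1.36 in fibroblasts, against 0.08 over all genes. In myeloid cells 2 of the 7 were higher and 5 lower, against 14.7% and 33.5% of all genes. Ebi3, a subunit of interleukin-27, had 70.4 CPM in myeloid and 0.632 CPM in the other gated cells, and its partner Il27 had 3.06 and 0.101 CPM on 43 and 4 UMIs. No UMI of Cntf was found.

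Of 8 genes of kinases and STATs, 0 were higher and 1 lower in fibroblasts, 0 and 0 in myeloid cells, 0 and 0 in endothelium, and 3 and 0 in lymphoid cells. The shares over all genes were 23.7% higher and 20.5% lower in fibroblasts, 14.7% and 33.5% in myeloid cells, 13.6% and 22.9% in endothelium, and 17.5% and 36.6% in lymphoid cells, and they apply to the feedback and response genes too. With 2 to 10 genes a list, these counts are descriptions only. Stat3 had 102 CPM in fibroblasts and 115 CPM in the other gated cells. Among those higher in lymphoid cells, Jak1 had 567 CPM in lymphoid and 208 CPM in the other gated cells, a ratio of 2.73 (2.57-2.91).

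Of 6 feedback genes, 3 were higher and 1 lower in fibroblasts, 0 and 4 in myeloid cells, 1 and 0 in endothelium, and 2 and 3 in lymphoid cells. Socs2 was 7.29-fold higher in fibroblasts, at 263 and 36.1 CPM. Socs3 was 644 CPM in fibroblasts and 345 CPM in the other gated cells, a ratio of 1.86. It was 292 CPM in myeloid cells against 628 CPM, 800 CPM in endothelium against 527 CPM and 173 CPM in lymphoid cells against 553 CPM in the other gated cells. Cish, a feedback gene of STAT5, was 5.74-fold higher in endothelium, at 52.6 and 9.16 CPM.

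Of 10 response genes, 3 were higher and 6 lower in fibroblasts, and 6 were higher and 3 lower in myeloid cells. Cebpd had 2356 CPM in fibroblasts and 319 CPM in the other gated cells, a ratio of 7.38, and Timp1 had 291 and 19.8 CPM, a ratio of 14.7. Cebpb had 3846 CPM in myeloid and 994 CPM in the other gated cells, and Hp, which encodes haptoglobin, had 184 and 7.28 CPM, a ratio of 25.3. The 2 sheddase genes, Adam10 and Adam17, whose products release receptors such as that of Il6ra from the cell surface, were within the 2-fold limit in fibroblasts and myeloid cells. Adam10 was 3.75-fold higher in endothelium, at 178 and 47.5 CPM.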

How the data were processed

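One pooled library of mouse heart cells other than cardiomyocytes was used. The matrix holds raw UMI counts per gene and barcode, deposited without normalization. The submitters' processing notes name STARsolo, Scanpy and mm10, without versions, and the rule that called cells is not given in the sources used here. Hashtag data were not analysed here, so nothing was tested and no p-value is given.

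Scrublet (in scanpy 1.11.5) calls were removed. A cell passed a compartment with at least 4 UMIs from at least 3 genes of 1 of 13 marker lists (97 genes). Cells passing several compartments were set aside. Endothelial classes needed 3 UMIs from 2 genes. UMIs were summed per group of cells and divided by the group's total (CPM), with exact Poisson intervals. Ratios have exact conditional binomial intervals, and shares of cells, after thinning to 2500 UMIs, have Clopper-Pearson intervals. All 9 members were named. Of each pathway list at most the 3 genes with most UMIs and the 2 with the largest ratio were named, except Bcl3, which was named after its values were seen. Members and lists were chosen with earlier results of these data known. Promoters came from RefSeq (GRCm38.p6), and 91.4% of gene IDs matched GENCODE M21. The ratio calculation was tested on simulated counts. Python 3.11.15, numpy 2.4.6 and scipy 1.17.1 were used.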

Additional observations from a re-analysis of the deposited data

How the results depend on the processing

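No paired analysis was possible because all values come from 1 pooled library and from no test. Settings were changed 1 at a time: looser and stricter gates, called doublets kept, cells of several compartments assigned to the strongest, cells weighted equally, Leiden clusters in place of gates, and no minimum of UMIs. Of 35 counts of higher members under these settings, 33 stayed within 1.5 times the main count. The count in mural cells, 0 in the main setting, was 2 under the looser gate and 1 with called doublets kept. Of 35 called compartment ratios, 31 stayed called under every setting. The endothelial ratios left the 2-fold limit under the looser gate for Il6 (0.516) and Lifr (1.81), and Il11, at 0.489 in the main setting, changed direction there (1.17). The lymphoid Osm ratio was 0.568 with Leiden clusters. The cause was not tested.

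Other settings were chosen after seeing the data. In Tnc and Col26a1 fibroblasts the Clcf1 ratio of 2.36 became 0 with a subset gate of 8 UMIs and 0.817 without the cell with most UMIs, and the Osm ratio of 6.40 became 0 with that gate, since so few UMIs were left. Depth limits Il11, Lif and Clcf1, and all values of mural and dendritic cells.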

Other observations

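The 160 cells that passed no gate were led by Igha, Jchain, Iglv1 and Igkc, genes of antibody-secreting cells, and by Nppa, Csf2 and Cd209a. Osm was 128 CPM there on 118 UMIs, of which 26 were in 1 cell, and Il6 was 58.8 CPM. Cardiomyocyte genes summed to 794 CPM in these cells. In the 1104 cells that passed several compartments, Il6 was 103 CPM, Il6st 95.1 CPM, Osmr 39.5 CPM and Osm 24.3 CPM.

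Over the 7 classes with at least 100 cells, the genes with a distribution most like that of a member were listed by Pearson's r of log2(CPM + 10), as a description of 7 points that share 1 library. For Il6 they were Cst6 (0.988), Cadm3 (0.986) and Enpp3 (0.984), and for Osmr they were Pcsk5, Gnb4 and Cttn, all at 0.999. For Osm, Clec7a (0.997) and Cxcl3 (0.996) were among the 3, and for Il6ra the first was Ifrd1 (0.993). The lists were unstable: with 1 or 100 CPM added in place of 10, 14 of 18 lists shared fewer than 2 of their 3 genes with the first.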
